A study of Homo sapiens with 4 samples.

Results

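Nascent RNA of 8 keratin genes was measured in HCT116 cells treated to deplete the transcriptional regulator KAP1 and in their controls. The genes are KRT80, KRT8, KRT18, KRT19, KRT20, KRT23, KRT10 and KRT15. They were chosen by name from the 54 type I and type II keratin genes among 19901 protein-coding genes, and KRT80 heads the list because it was among the largest rises in these same counts. Its difference between treatments is therefore a description, and so are the differences of the other members, which were listed with those results in view. For all 8, estimates and intervals are given with no p-value, and whether a member was called supports nothing.

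The cells were clone D5 of the KAP1_dTAG derivative of HCT116, an established line from a human colon cancer. In this line both alleles of TRIM28, the gene that encodes KAP1, carry a degron, a peptide through which the compound dTAG directs the protein to the proteasome. The line was expanded from single sorted cells, so every library comes from 1 clone, and the tag was present in the controls too. Cells in serum-containing medium received either the vehicle DMSO for 8 h (2 libraries) or dTAG for 8 h (2 libraries). At the end of treatment 500 μM 4-thiouridine was given for 10 min, and RNA made in that time was purified and sequenced (TT-Seq, transient transcriptome sequencing). Each library pooled several dishes, and the study's methods call the replicates biological, while the labels do not say how they were separated. The p-values below set the difference between treatments against the spread between these libraries, which is estimated partly from all tested genes. In such bulk material, fewer cells that transcribe a gene and less RNA per cell cannot be told apart.

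Keratins are the intermediate filament proteins of epithelia. A filament is built from heterodimers of an acidic type I keratin with a basic type II keratin, and the genes of each type lie together, type II and KRT18 on chromosome 12 and the other type I genes on chromosome 17. Simple epithelia such as the colon lining use the pair KRT8 and KRT18 with KRT19, and KRT20 marks the differentiated intestinal surface. Stratified epithelia use other pairs, of which KRT10 is a suprabasal and KRT15 a basal type I member. KRT80 is a type II keratin found in many epithelia near cell junctions, and KRT23 is a further type I keratin.

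Gene counts summed to between 93105627 and 102314741 per library, and a minimum of 50 counts in every library left 12612 genes for testing. Values are given as raw counts or as CPM, edgeR's library-size-scaled counts with TMM factors of 0.970 to 1.05. Of the tested genes, 434 (3.44%) were called higher and 461 (3.66%) lower with dTAG at an adjusted p under 0.05 (edgeR quasi-likelihood test, two-sided, Benjamini-Hochberg adjustment), which together is 7.1%. Both dTAG libraries lay above both DMSO libraries for 28.1% of tested genes and below them for 30.7%, so that groups without overlap are common in 2 against 2 libraries. Over all tested genes the log2 fold change had a median of -0.015, and 5% lay under -0.45 and 5% above 0.30. Across the 12612 genes the log2 fold change had a Spearman correlation of -0.56 with the GC content of the gene and of 0.42 with its length, a description over genes that share the same libraries. TRIM28 RNA fell by 0.37 on the log2 scale (standard error 0.092, Benjamini-Hochberg adjusted p = 0.0189, edgeR quasi-likelihood fit). Its call was lost with the GC and length trends of each library removed (-0.10, adjusted p = 0.171, edgeR), with an ERCC spike-in factor as a covariate (-0.19, 0.128) and when either dTAG library was left out (-0.45, 0.183 without replicate 1, and -0.30, 0.876 without replicate 2). The degron sits on KAP1 protein, so TRIM28 RNA is no check of the treatment labels.

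The epithelial identity of the cells was read from 13 marker genes, of which 3 are the members KRT8, KRT18 and KRT19 and 11 passed the count minimum. Their summed level was between 1517 and 1619 CPM per library, with EPCAM at 133 to 140 CPM and CDH1, which encodes E-cadherin, at 160 to 196 CPM. The intestinal markers VIL1, with 1 to 15 counts, and CDH17, with 7 to 16 counts, stayed under the minimum. Markers of fibroblasts summed to between 5.20 and 5.91 CPM, most of it from COL1A1 at 420 to 538 counts, those of leukocytes to between 3.48 and 4.26 CPM and those of endothelium to between 1.87 and 2.67 CPM, with COL1A2 and LUM at 0 counts and PTPRC, the leukocyte common antigen gene, at 0 to 1.

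The promoters of 3 of the 8 members were found in RefSeq's table for GRCh38.p14, each from 250 bases before to 50 bases after a start site, and all 3 are shown. They belong to members of different levels: KRT8 had the most counts of the 8 members before division by length, KRT10 a low level and KRT20 almost none. The KRT8 window, chr12:52926420-52926719 on the minus strand, lies inside the interval over which KRT8 was counted, so that this interval also holds sequence upstream of this start. The counts are of the whole interval and do not show from which start the KRT8 RNA came. The KRT10 window is chr17:40822565-40822864 and the KRT20 window chr17:40885193-40885492, both on the minus strand. The sequences run 5′ to 3′ on the strand of the gene, and capitals mark motifs.
KRT8: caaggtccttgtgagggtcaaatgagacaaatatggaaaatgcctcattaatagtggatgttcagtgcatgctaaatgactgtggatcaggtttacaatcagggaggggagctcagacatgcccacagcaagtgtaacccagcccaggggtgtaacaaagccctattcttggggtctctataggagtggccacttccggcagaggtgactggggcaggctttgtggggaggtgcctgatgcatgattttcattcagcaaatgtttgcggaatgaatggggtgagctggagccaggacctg
KRT10: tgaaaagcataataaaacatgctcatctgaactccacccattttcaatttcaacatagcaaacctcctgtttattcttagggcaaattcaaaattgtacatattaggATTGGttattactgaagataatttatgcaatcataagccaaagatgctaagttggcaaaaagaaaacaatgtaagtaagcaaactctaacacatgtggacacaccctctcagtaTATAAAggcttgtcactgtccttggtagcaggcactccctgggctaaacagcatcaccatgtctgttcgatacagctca
KRT20: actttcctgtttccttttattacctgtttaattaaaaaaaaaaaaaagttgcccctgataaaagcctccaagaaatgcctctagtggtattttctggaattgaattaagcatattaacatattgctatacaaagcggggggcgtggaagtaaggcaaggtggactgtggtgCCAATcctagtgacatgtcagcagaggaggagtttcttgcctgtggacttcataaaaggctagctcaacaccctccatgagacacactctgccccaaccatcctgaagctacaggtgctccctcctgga
Searched on both strands were the TATA box (TATAAA), the CCAAT box (ATTGG when read on the opposite strand) and the AP-1 site (TGACTCA, or TGAGTCA when read on the opposite strand). The KRT8 window held none of them, the KRT10 window held TATAAA and ATTGG, and the KRT20 window held CCAAT, with no motif overlapping another. Of all 35116 promoters in the table, 11.5% held TATAAA, 34.6% CCAAT and 4.95% TGACTCA, on either strand. GC content was 50.7% in the KRT8 window, 37.7% in that of KRT10 and 44% in that of KRT20. A match describes these letters and is not a site shown to be used. KRT80, KRT18, KRT19, KRT23 and KRT15 were without an entry.

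Of the 8 members, 6 passed the count minimum and KRT20 and KRT23 did not. Among the 6, KRT80 was called higher and the other 5 were not called in either direction, beside the 3.44% of tested genes called higher and the 3.66% called lower. Because the contrast chose KRT80, nothing is read from that count. The median log2 fold change of the 6 was -0.019, close to the -0.015 of all tested genes.

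KRT80 (ENSG00000167767.13) lies on the minus strand of chromosome 12 of hg38, from 52168995 to 52192000. Its counts were 2357 and 2811 in DMSO replicates 1 and 2 and 5597 and 5151 in dTAG replicates 1 and 2, which is 23.8, 28.2, 55.9 and 57.1 CPM. Both dTAG libraries were higher than both DMSO libraries, in the contrast by which KRT80 was chosen. The estimates that follow are not corrected for that choice. The means were 26.0 ± 3.10 CPM with DMSO and 56.5 ± 0.846 CPM with dTAG (SD, n = 2 each). On the log2 scale the difference was 1.12 (standard error 0.099, 95% interval 0.91 to 1.33), a 2.17-fold higher value with dTAG. The pooled SD of the log2 CPM between replicates was 0.12.

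**Figure D1:**
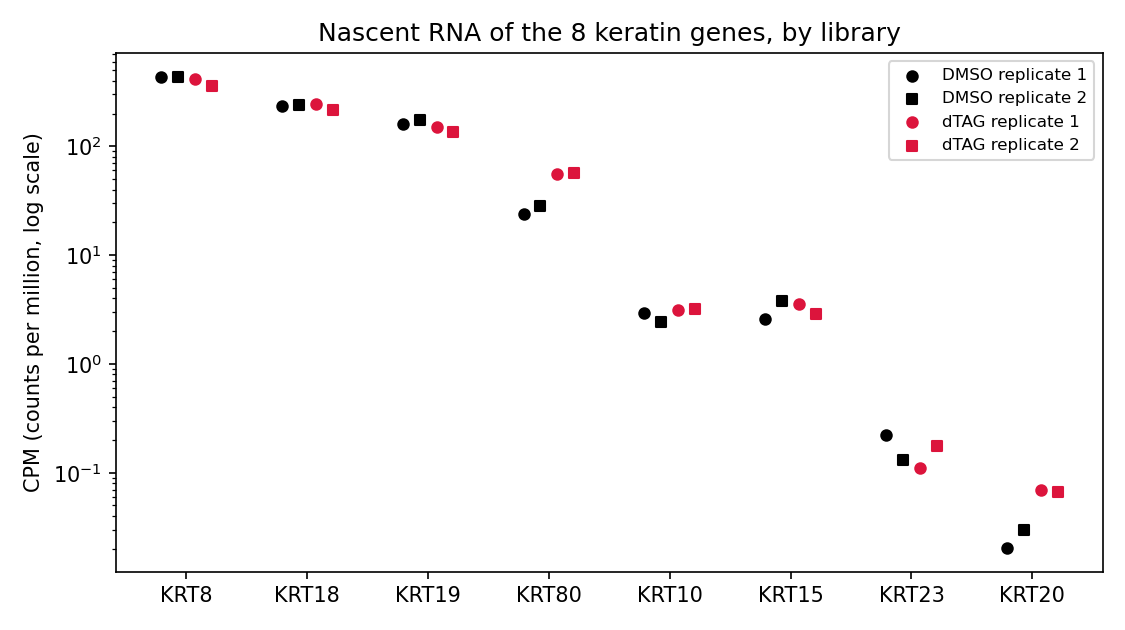
CPM (log scale) of the 8 keratin genes in each of the 4 libraries, ordered by level, with black for DMSO and red for dTAG and a circle or square for replicate 1 or 2. Of the 6 members past the count minimum, KRT80 is the one whose red points stand far above the black ones (55.9 and 57.1 against 23.8 and 28.2), KRT8, KRT18 and KRT19 lie together between 135 and 438, and KRT23 and KRT20 lie under 1.

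By size of log2 fold change KRT80 was the fifth of all 12612 tested genes, and 11 genes (0.0872%) were called and at least 2-fold higher. The 2 called genes just above it in that order were ITGBL1 at 1.20 (standard error 0.12), a gene of an integrin beta-like protein, and NRP1 at 1.13 (standard error 0.095), a co-receptor for semaphorins and VEGF. Just below it was GLIPR1 at 1.12 (standard error 0.19). These neighbours differ from KRT80 by less than their standard errors, so the order among them is not resolved. KRT80 has a GC content of 55.7% over 23006 bases, above the median of 44.9% for tested genes and shorter than their median of 36150. The 657 tested genes within 1 percentage point of its GC content had a median log2 fold change of -0.19. Of them, 1 lay above KRT80, a count limited in advance by its place near the top of all tested genes.

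The gene LINC00592, a long noncoding RNA on the opposite strand, spans the whole of KRT80, while the counting covered protein-coding genes. The strand setting of the counting is not given in the sources used here, so reads of KRT80 and LINC00592 cannot be told apart in these counts.

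The simple epithelial keratins KRT8, KRT18 and KRT19 supplied most keratin counts in these cells. KRT8 (ENSG00000170421.12) is the type II partner of KRT18 and lies on the minus strand of chromosome 12 from 52897186 to 52949954. It had 42609 and 43667 counts with DMSO and 41793 and 32671 with dTAG, or 430, 438, 417 and 362 CPM. The dTAG libraries were lower than the DMSO libraries, as for 30.7% of tested genes, but they differed more from each other than the nearer one did from DMSO. The means were 434 ± 5.29 and 390 ± 39.1 CPM (SD, n = 2 each), with a log2 fold change of -0.16 (standard error 0.099) and a 95% interval from -0.36 to 0.051.

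KRT18 (ENSG00000111057.10), the type I partner, lies next to KRT8 on the plus strand from 52948870 to 52952901. Its counts were 23398 and 23716 with DMSO and 24700 and 19384 with dTAG, or 236, 238, 247 and 215 CPM. The DMSO values fell between the dTAG values, so that the groups overlapped. The log2 fold change was -0.039 (standard error 0.093, 95% interval -0.23 to 0.15), and the mean went from 237 ± 1.04 to 231 ± 22.5 CPM (SD, n = 2 each).

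KRT19 (ENSG00000171345.13), a type I keratin without a tail domain that pairs with KRT8, lies on the minus strand of chromosome 17 from 41523616 to 41528308. It had 15751 and 17295 counts with DMSO and 15006 and 12215 with dTAG, or 159, 173, 150 and 135 CPM. Both dTAG libraries lay below both DMSO libraries. The log2 fold change was -0.22 (standard error 0.089, 95% interval -0.41 to -0.036). KRT19 has a GC content of 57.4%, and once each library's trend on GC content and gene length was removed its log2 fold change was 0.027, while that of KRT8 was -0.082 and that of KRT18 was 0.19. The removal thus took KRT19 to near 0 and turned the sign of KRT18. With upper-quartile normalization, which put the median gene at -0.088, KRT19 was at -0.30.

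These 3 genes have close copies that may share their reads. GENCODE 44 annotates 51 pseudogenes of KRT8, 68 of KRT18 and 5 of KRT19, and how reads with several matches were counted is not given in the sources used here. KRT8 and KRT18 also overlap by 1085 bases on opposite strands. The levels of these members are uncertain to that extent.

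The keratins of stratified epithelia were transcribed at a low level. KRT10 (ENSG00000186395.7), on the minus strand of chromosome 17 from 40818116 to 40822595, had 291 and 241 counts with DMSO and 313 and 287 with dTAG, or 2.94, 2.42, 3.13 and 3.18 CPM. The dTAG libraries were the higher ones, as for 28.1% of tested genes, by a margin smaller than the gap between the DMSO libraries. The log2 fold change was 0.24 (standard error 0.20, 95% interval -0.18 to 0.65). The counted gene KRT10-AS1 overlaps KRT10 by 3491 bases on the opposite strand, and without strand their reads cannot be separated.

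KRT15 (ENSG00000171346.15), on the minus strand of chromosome 17 from 41513742 to 41522529, had 258 and 377 counts with DMSO and 353 and 258 with dTAG, or 2.61, 3.78, 3.52 and 2.86 CPM. The groups overlapped almost entirely. The log2 fold change was 0.0013 (standard error 0.21), and the 95% interval from -0.44 to 0.45 leaves room for a change of up to that size in either direction.

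The remaining members were close to silent. KRT20 (ENSG00000171431.3), on the minus strand of chromosome 17 from 40875940 to 40885227, had 2 and 3 counts with DMSO and 7 and 6 with dTAG. KRT23 (ENSG00000108244.16), from 40922695 to 40937634 on the same strand, had 22 and 13 counts with DMSO and 11 and 16 with dTAG. The KRT20 counts were higher with dTAG and the KRT23 groups overlapped, but both genes were under the count minimum in every library and no fold change is given for them. Differences of these genes were not detectable at this depth.

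**Figure D2:**
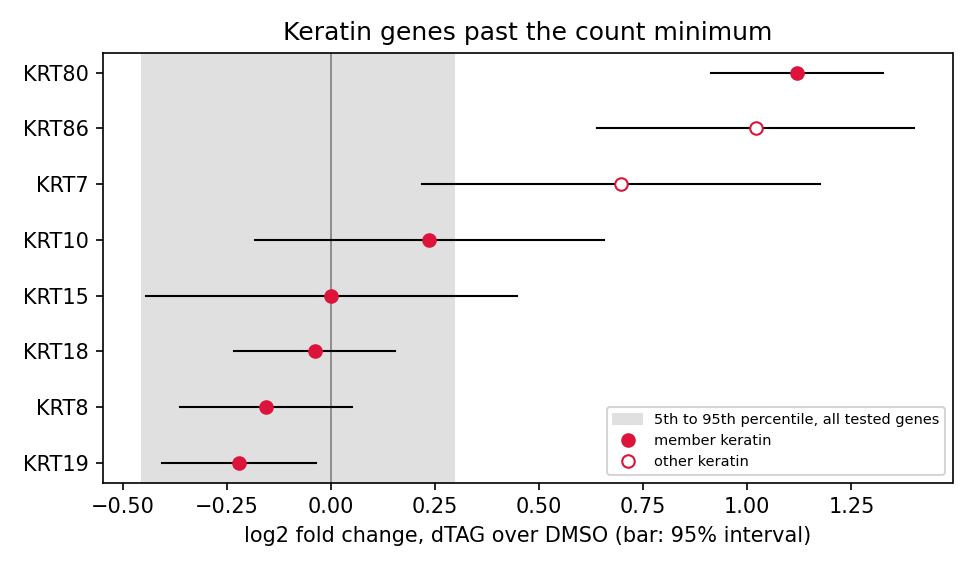
Log2 fold change (dTAG over DMSO, horizontal axis) of the 8 keratin genes that passed the count minimum, with 95% intervals as bars, filled points for members and open points for other keratins, and a grey band from the 5th to the 95th percentile of all tested genes (-0.45 to 0.30). KRT80 at 1.12, KRT86 at 1.02 and KRT7 at 0.70 lie right of the band, and KRT10, KRT15, KRT18, KRT8 and KRT19 have their estimates inside it.

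Levels between genes are compared as CPM per kilobase of the counted gene, since reads were counted over introns and exons. In the DMSO libraries KRT18 was highest at 58.8, followed by KRT19 at 35.4, KRT8 at 8.22, KRT80 at 1.13, KRT10 at 0.598, KRT15 at 0.363, KRT23 at 0.0118 and KRT20 at 0.00271 CPM per kilobase. The values of neighbouring members in this order did not overlap between the 2 DMSO libraries in any pair, the closest being KRT10 at 0.539 to 0.656 and KRT15 at 0.296 to 0.430. Among tested genes KRT18 stood at the 99.3rd percentile, KRT19 at the 98.9th, KRT8 at the 95th, KRT80 at the 51.9th, KRT10 at the 34.1st and KRT15 at the 24.4th.

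KRT80 was thus a gene of middling level per length in the DMSO libraries, and its per-kilobase level was 1.03 and 1.22 with DMSO and 2.43 and 2.48 with dTAG. It kept the fourth place among the members in all 4 libraries. The order depends on the length that is used. KRT8 was divided by a counted span of 52769 bases, against 4032 for KRT18, and the KRT8 start shown above lies inside that span. The place of KRT8 below KRT18 and KRT19 per kilobase thus depends on that span. Without division by length KRT8 came first at 434 CPM and KRT15 at 3.19 CPM stood above KRT10 at 2.68 CPM, and with RefSeq's length of 5146 bases in place of the counted 8788 KRT15 reached 0.620 CPM per kilobase against 0.595 for KRT10.

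Ratios of counts within a library do not depend on scaling between libraries. KRT80 made up 2.76% of all keratin counts in DMSO replicate 1 (95% Wilson interval 2.65 to 2.87), 3.17% in DMSO replicate 2 (3.06 to 3.29), 6.30% in dTAG replicate 1 (6.14 to 6.46) and 7.26% in dTAG replicate 2 (7.07 to 7.46). These intervals cover counting error only, and the replicates of each treatment differ by more than that. The count of KRT80 per count of KRT8 was 0.0553 and 0.0644 with DMSO and 0.134 and 0.158 with dTAG. Per count of KRT18 it was 0.101 and 0.119 with DMSO and 0.227 and 0.266 with dTAG. KRT80 was thus higher relative to KRT8 and to KRT18 in both dTAG libraries.

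The pair KRT8 and KRT18 stayed closer together. Their count ratio was 1.82 and 1.84 with DMSO and 1.69 in both dTAG libraries, a smaller shift than that of KRT80 but also without overlap. KRT19 per count of KRT18 was 0.673 and 0.729 with DMSO and 0.608 and 0.630 with dTAG. All keratin genes together summed to 862 and 889 CPM with DMSO and 888 and 786 CPM with dTAG, which overlapped. The share of this sum from KRT8, KRT18 and KRT19 was 95.8% and 95.5% with DMSO and 91.7% and 90.6% with dTAG.

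Of the 46 keratin genes outside the members, 2 passed the count minimum, 44 were below it and 14 of those had no count in any library. KRT86 (ENSG00000170442.11), a type II hair keratin gene, lies on the plus strand of chromosome 12 from 52249299 to 52309163. It had 293 and 254 counts with DMSO and 588 and 477 with dTAG, or 2.96, 2.55, 5.87 and 5.29 CPM. KRT86 rose with dTAG by a log2 fold change of 1.02 (standard error 0.18, Benjamini-Hochberg adjusted p = 0.00178, edgeR quasi-likelihood fit). Its DMSO level was low, at 0.046 CPM per kilobase over a counted span of 59865 bases, the 6.3rd percentile of tested genes. Both dTAG libraries were higher than both DMSO libraries. Without dTAG replicate 1 the log2 fold change was 0.94 and the call was lost (adjusted p = 0.0597, same edgeR fit).

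KRT7 (ENSG00000135480.15), a type II keratin of ductal and other simple epithelia, lies on the plus strand from 52232519 to 52252186. Its counts were 274 and 164 with DMSO and 338 and 341 with dTAG, or 2.77, 1.64, 3.38 and 3.78 CPM. The DMSO level was 0.112 CPM per kilobase, the 11.6th percentile of tested genes. The dTAG libraries were higher, but the DMSO libraries differed from each other by more than DMSO replicate 1 did from dTAG. The log2 fold change of 0.70 (standard error 0.23) did not pass (Benjamini-Hochberg adjusted p = 0.0663, edgeR quasi-likelihood fit). With the GC and length trends of each library removed KRT7 was at 0.85 and was called (adjusted p = 0.0327, edgeR quasi-likelihood fit). With upper-quartile normalization it was at 0.63 and was not called. Its log2 fold change was 1.12 without DMSO replicate 1, 0.37 without DMSO replicate 2, and 0.13 with the ERCC factor as a covariate.

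KRT86 and KRT7 overlap by 2888 bases on the same strand, and KRT81 lies wholly inside KRT86 on the opposite strand. How shared reads were assigned is not given in the sources used here, so the values of KRT86, KRT7 and KRT81 are uncertain as to which gene the reads came from. KRT81, another hair keratin gene, had 54 and 35 counts with DMSO and 67 and 49 with dTAG, and the groups overlapped. The next gene, KRT83, had 14 and 13 counts with DMSO and 5 and 6 with dTAG. KRT4 had 7 and 9 counts with DMSO and 1 with dTAG in each library, and KRT39 had 11 and 12 with DMSO and 18 and 15 with dTAG. KRT32 had 2 and 13 counts with DMSO and 15 and 18 with dTAG. The keratins of basal and activated epidermis, KRT5, KRT14, KRT16 and KRT17, had 0 to 8 counts per library, and KRT1, KRT2, KRT6A and KRT6C had none.

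By position, the keratins with the highest log2 fold changes were neighbours, a pattern seen in the values and not tested. KRT80, KRT7 and KRT86 follow one another at one end of the type II cluster, and KRT8 and KRT18 lie at the other end, with genes of few or no counts between. KRT7 was not called, and it overlaps KRT86 by 2888 bases on the same strand, so their values may share reads. The 2 tested genes next to KRT80 on its other side, ATG101 at 0.10 (standard error 0.11) and SMIM41 at 0.095 (standard error 0.23), were not called. The gene beyond them, NR4A1, which encodes an orphan nuclear receptor, rose by 0.53 (standard error 0.13, Benjamini-Hochberg adjusted p = 0.0169, edgeR quasi-likelihood fit). After NR4A1 comes TAMALIN, which was at -0.54 (standard error 0.26) and was not called. Past KRT18, EIF4B was at 0.095 (standard error 0.099) and TNS2 at -0.55 (standard error 0.17), neither of them called.

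**Figure D3:**
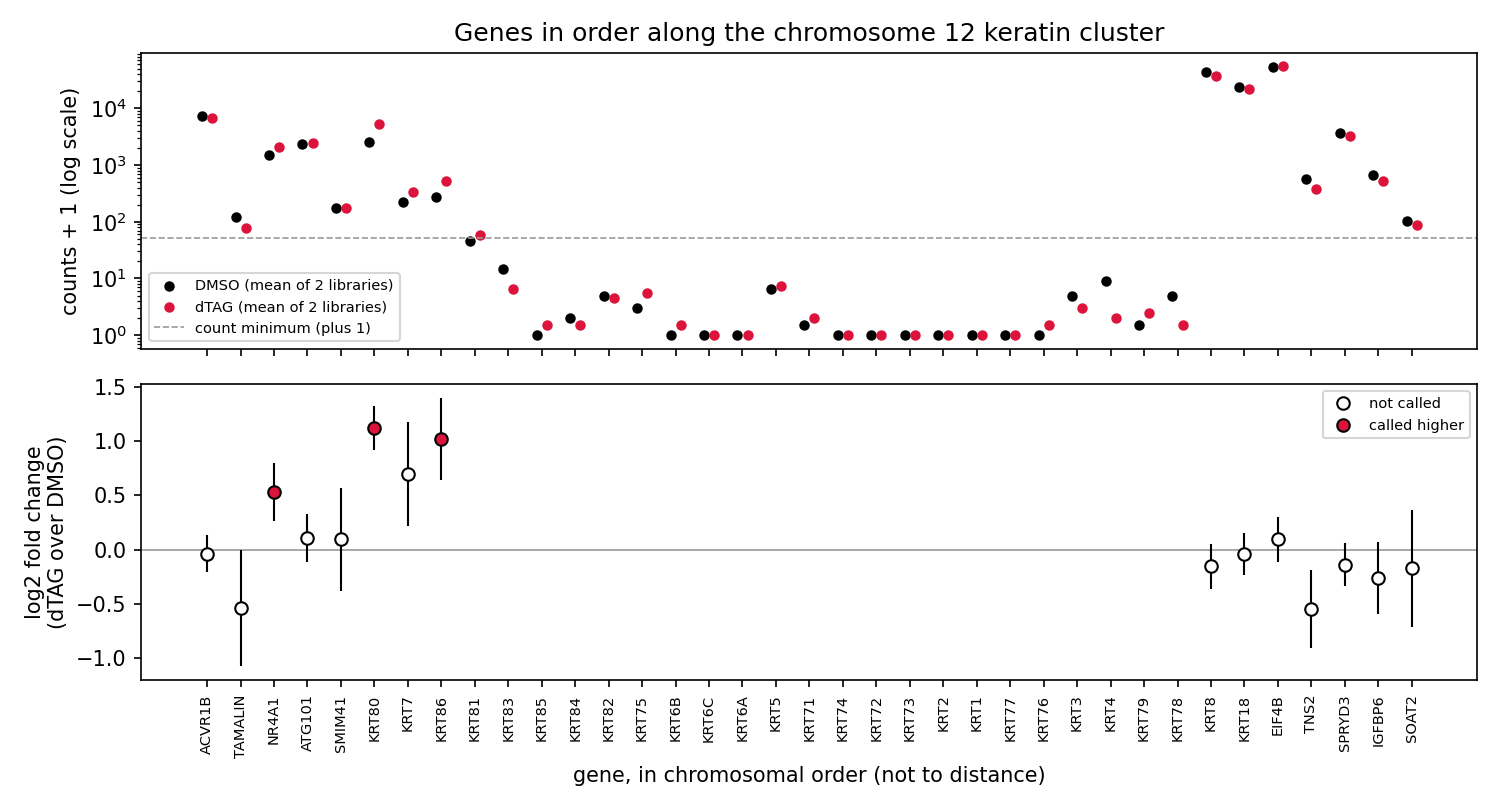
Genes in chromosomal order (horizontal axis, not to distance) along the keratin cluster of chromosome 12. The upper panel gives mean counts plus 1 on a log scale, black for DMSO and red for dTAG, with a dashed line at the count minimum, and the lower panel the log2 fold change with its 95% interval for genes past it, red where called higher. KRT80, KRT7 and KRT86 lie together at 1.12, 0.70 and 1.02, a run of genes with few or no counts follows, and KRT8 and KRT18 at the far end lie at -0.16 and -0.039.

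Tested genes whose profile over the 4 libraries was close to that of KRT80 were found by the Euclidean distance between log2 CPM centred on each gene's mean, a description over 4 libraries. Among the nearest 5 were GLIPR1 at a distance of 0.108, ERG, an ETS family transcription factor gene, at 0.164, NRP1 at 0.227 and TRIB3, a stress-induced pseudokinase gene, at 0.236, where the median of all tested genes was 1.16. GLIPR1 had 2.07 and 2.69 CPM with DMSO and 5.26 and 5.08 CPM with dTAG. NRP1 had 25.8 and 24.7 CPM with DMSO and 52.6 and 57.5 CPM with dTAG, which is near the CPM of KRT80 in every library. No keratin was among the nearest 5. The other tested members lay at 0.958 for KRT10, 1.15 for KRT15, 1.19 for KRT18, 1.30 for KRT8 and 1.35 for KRT19, that is, around the median distance of all tested genes. This distance largely follows the fold change by which KRT80 was chosen, so these values repeat the differences given above. KRT86, a keratin outside the members, has no distance listed here. Its dTAG libraries stood 1.09 and 0.94 above the DMSO mean on the log2 scale, and those of KRT80 1.11 and 1.14.

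Keratin filaments end on desmosomes and hemidesmosomes through plakin linker proteins, and genes of these structures were read as lists. All 7 hemidesmosome genes were tested, with 2 called higher and none lower, beside 3.44% and 3.66% of all tested genes, and their median log2 fold change was 0.081 beside -0.015 for all tested genes. In lists this short, counts of 1 or 2 are given as a description. LAMB3, the beta chain gene of laminin-332, had 38.7 and 44.0 CPM with DMSO and 64.1 and 57.8 CPM with dTAG. It rose by 0.56 (standard error 0.094, Benjamini-Hochberg adjusted p = 0.00102, edgeR quasi-likelihood fit). ITGA6, the integrin alpha 6 gene, had 125 and 118 CPM with DMSO and 158 and 149 CPM with dTAG. It rose by 0.33 (standard error 0.085, Benjamini-Hochberg adjusted p = 0.0214, edgeR quasi-likelihood fit). For both genes the dTAG libraries lay above the DMSO libraries.

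Partners of these genes were not called. ITGB4, which encodes the integrin beta 4 chain that pairs with alpha 6, was at -0.10, LAMA3 at 0.081 and CD151 at -0.21 on the log2 scale. The call of LAMB3 was lost without dTAG replicate 1 (0.49, adjusted p = 0.113, same edgeR fit). That of ITGA6 was lost without dTAG replicate 1 (0.30, adjusted p = 0.503, same edgeR fit) and without dTAG replicate 2 (0.37, adjusted p = 0.640, same edgeR fit).

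Of 12 desmosome genes 7 were tested, with a median of -0.19 beside -0.015 for all tested genes. Of these, 1 was called lower and none higher, beside 3.66% and 3.44% of all tested genes. PKP3, a plakophilin gene, had 24.6 and 26.9 CPM with DMSO and 19.8 and 20.3 CPM with dTAG, and fell by 0.36 on the log2 scale (standard error 0.11, Benjamini-Hochberg adjusted p = 0.0476, edgeR quasi-likelihood fit). Removing each library's trend on GC content and length brought PKP3 to 0.038, with no call. DSP, the gene of desmoplakin, which anchors keratin at the plaque, was at 0.0022 with 128 to 143 CPM, and JUP at -0.19, DSG2 at 0.049 and PKP2 at 0.25 were not called either. All 6 plakin linker genes were tested, with a median of -0.046 beside -0.015 for all tested genes. Of these, 1 was called lower and none higher, beside 3.66% and 3.44% of all tested genes. EPPK1, the gene of epiplakin, a keratin-binding linker, fell by 0.49 on the log2 scale (standard error 0.12, Benjamini-Hochberg adjusted p = 0.0156, edgeR quasi-likelihood fit), from 19.8 and 22.2 CPM to 15.2 and 14.7 CPM, and was at -0.14 with no call once the GC and length trends were removed. DST at 0.16, MACF1 at 0.16, PLEC at -0.033 and PPL at -0.058 were not called.

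Intermediate filament genes other than keratins numbered 15, of which 7 were tested, with a median of -0.10 beside -0.015 for all tested genes. Of these, 2 were called lower and none higher, beside 3.66% and 3.44% of all tested genes. SYNM, the gene of synemin, had 6.66 and 8.20 CPM with DMSO and 4.88 and 4.73 CPM with dTAG, and fell by 0.63 on the log2 scale (standard error 0.16, Benjamini-Hochberg adjusted p = 0.025, edgeR quasi-likelihood fit). LMNA, the gene of the nuclear lamins A and C, had 275 and 306 CPM with DMSO and 249 and 213 CPM with dTAG, and fell by 0.33 on the log2 scale (standard error 0.098, Benjamini-Hochberg adjusted p = 0.0476, edgeR quasi-likelihood fit). LMNB1 at 0.012, LMNB2 at -0.10 and BFSP1 at -0.0032 were not called. VIM, the mesenchymal filament gene, had only 97 to 130 counts in each library and a log2 fold change of 0.12 (standard error 0.25).

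Of the 13 cornified envelope genes, which belong to the keratinizing programme of epidermis, 3 were tested. Their median was -0.20 beside -0.015 for all tested genes, and none was called, beside 7.1% of all tested genes. The 3 tested were KLK7, TGM1 and CNFN, at -0.069, -0.26 and -0.20. IVL, the involucrin gene, had 0 to 14 counts, and LORICRIN, SPRR1A, SPRR1B and SPRR2A had none. The 11 tested epithelial markers had a median of -0.10, beside -0.015 for all tested genes. Of these markers, 1 was called lower and none higher, beside 3.66% and 3.44% of all tested genes. ELF3, an epithelial ETS factor gene, fell by 0.41 on the log2 scale (standard error 0.099, Benjamini-Hochberg adjusted p = 0.0179, edgeR quasi-likelihood fit), from 54.7 and 68.1 CPM to 47.1 and 45.6 CPM. EPCAM at 0.053, CDH1 at 0.24, GRHL2 at 0.023 and ESRP1 at 0.13 were not called, and neither were the claudin genes CLDN3 at -0.36, CLDN4 at -0.28 and CLDN7 at -0.10. Of the 11 tested markers, 4 had a log2 fold change above 0 and 7 below it. ELF3 was at -0.19, still called, with the GC and length trends removed, and at -0.24, still called, without DMSO replicate 2. With the ERCC factor as a covariate SYNM at -0.38, LMNA at -0.14, PKP3 at -0.27, EPPK1 at -0.35 and ELF3 at -0.14 were not called. The calls of SYNM, LMNA, PKP3, EPPK1 and ELF3 were each lost without dTAG replicate 1, where the adjusted p from edgeR ranged from 0.211 for EPPK1 to 0.473 for PKP3, and without dTAG replicate 2, where it ranged from 0.597 for EPPK1 to 0.949 for LMNA.

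**Figure D4:**
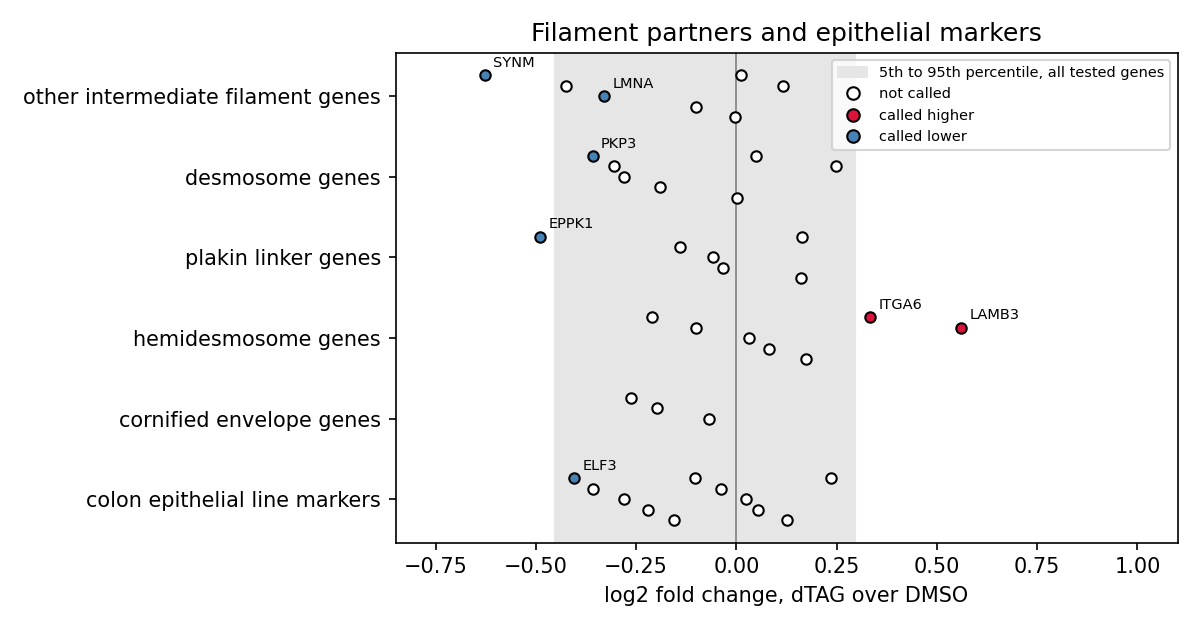
Log2 fold change (dTAG over DMSO, horizontal axis) of each tested gene in 6 lists, with open points for genes not called, red for called higher and blue for called lower, and a grey band from the 5th to the 95th percentile of all tested genes. LAMB3 at 0.56 and ITGA6 at 0.33 are the red points. The blue ones are SYNM at -0.63, EPPK1 at -0.49, ELF3 at -0.41, PKP3 at -0.36 and LMNA at -0.33. Of the called genes, ELF3, PKP3 and LMNA lie within the band, as do the genes not called.

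KRT80 lay at least 1.02 above the median gene on the log2 scale under every setting tried. KRT80 was chosen for its rise in these same counts, so that distance is a description. Its log2 fold change ranged from 1.00 without DMSO replicate 1 to 1.80 with library sizes set to the totals of the ERCC spike-in RNAs. Under these totals the median gene itself stood at 0.63, and KRT80 lay 1.17 above it. The ERCC counts were 0.0103% to 0.0265% of gene counts per library, lowest in dTAG replicate 2 and highest in DMSO replicate 2. With the GC and length trends removed KRT80 was at 1.31, and with 1 ERCC factor as a covariate it was at 1.29. Its rank by log2 fold change was between 3 and 15, except that it was 809 of the 17450 genes fitted with a minimum of 1 count in some library. KRT8, KRT18 and KRT19 stood between -0.28 and 0.19 relative to the median gene across the settings. With the ERCC totals they lay at 0.48, 0.59 and 0.43, all below the median gene of that setting.

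**Figure D5:**
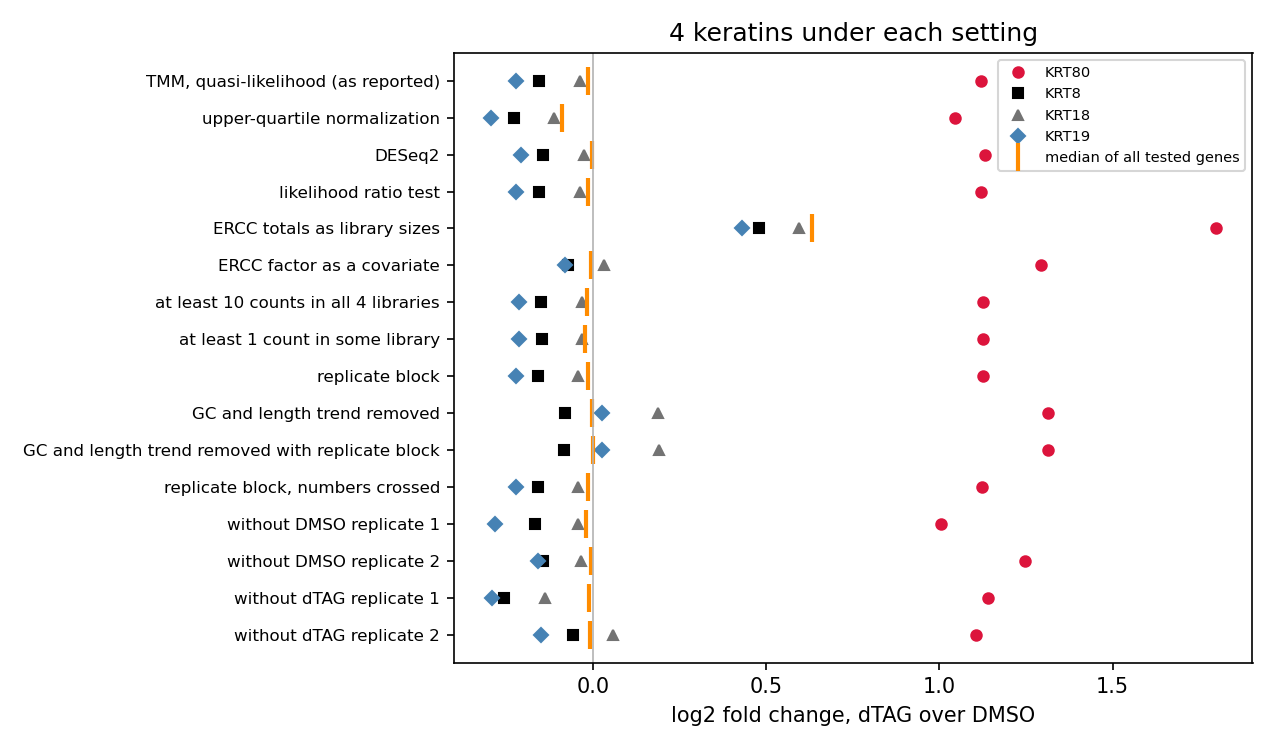
Log2 fold change (dTAG over DMSO, horizontal axis) of KRT80 (red), KRT8 (black), KRT18 (grey) and KRT19 (blue) under each setting, 1 row per setting, with an orange bar at the median of all tested genes. KRT80 lies between 1.00 and 1.80 in every row, and the other 3 genes lie near the orange bar, which moves from about 0 to 0.63 when library sizes are the ERCC totals.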

How the data were processed

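TT-Seq libraries of 2 DMSO and 2 dTAG samples were analyzed. Per the labels and the study's methods, the authors used FastQC 0.11.8 for quality, Trim Galore 0.6.4 for adapters, STAR for alignment to hg38, and featureCounts of Subread 1.6.3 for counting reads over the whole span of each protein-coding gene, with ERCC spike-ins included. The deposited table holds these raw counts, unnormalized, of 19901 genes and 92 ERCC RNAs, with 93105627 to 102314741 gene counts per library. Strand, overlaps and multiple matches in counting are not given in the sources used here. Symbols were matched by Ensembl ID for 19802 genes, and overlaps were read from GENCODE 44. Coordinates are those of the counted table.

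Counts were fitted in R 4.3.3 with edgeR 4.0.16 (TMM, quasi-likelihood test, two-sided, no replicate block) for the 12612 genes that had 50 or more counts in each library, as in the study's methods, with Benjamini-Hochberg adjustment over all of them and a threshold of 0.05. Standard errors were obtained from the log2 fold change and the F statistic, and 95% intervals use the moderated degrees of freedom. The fits were also run on simulated counts that held no GC or length trend, so that run does not test them on data with such trends. The study names RUVSeq for spike-ins but not its settings, so TMM was used and ERCC settings were alternatives.

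The members and lists were chosen with earlier results of these data known. Genes named are the 8 members, other keratins past the minimum and, with counts, some below it, every called gene of each list with up to 4 uncalled genes of high level, the called genes ranked next to KRT80, the 5 nearest profiles, genes that overlap a member, and TRIM28. Of the genes that this rule selects, 2 are not reported here. CD151, KRT81, NR4A1, other neighbours on chromosome 12 and the untested or low genes of the lists were named after their values were seen. Alternatives were upper-quartile normalization, DESeq2 1.42.0, the likelihood ratio test, ERCC totals, 1 ERCC factor from 14 ERCC RNAs, 2 count filters, a replicate block, removal of GC and length trends (lowess, span 0.3), and leaving out each library, where a lone library was assumed to vary like the other group.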

Additional observations from a re-analysis of the deposited data

How the results depend on the processing

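KRT80 was chosen for its rise in these same libraries, so refits of them describe its size and support nothing. It stayed above the median of all genes in each of the 15 alternatives. Its log2 fold change of 1.12 was 1.80 with ERCC totals as library sizes, 1.29 with the ERCC factor, 1.31 with the GC and length trends removed, with or without the replicate block, and 1.00 to 1.25 when 1 library was left out. Its DMSO level of 1.13 CPM per kilobase was 26.0 CPM without division by length and 1.03 or 1.22 with 1 DMSO library.

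The number of genes called higher (434) and lower (461) was 255 and 869 with upper-quartile normalization, 729 and 864 with the likelihood ratio test, 673 and 744 with at least 1 count in some library, 1341 and 939 with GC and length trends removed, and 1504 and 1125 with the block added to that. It was 680 higher with DESeq2, 798 higher with the ERCC factor, and 0 and 0 with ERCC totals by edgeR, where 229 genes had an unadjusted p under 0.05. Leaving out 1 library gave 48 to 2798 higher and 21 to 2693 lower.

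Replicate numbers do not mark a shared batch in the labels, and the 2 pairs of same-numbered libraries deviated with a correlation of -0.25. The replicate block gave 162 higher and 178 lower calls. A block with the numbers crossed, chosen after seeing the data, gave 1587 and 1603.

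Among the members other than KRT80, none was called, which is a description since the members were listed with these results in view. KRT18 was the 1 called higher with GC and length trends removed, with or without the block, and KRT19 the 1 called lower with upper-quartile normalization, with the crossed block and without DMSO replicate 1 (0 to 1 over the libraries left out). Of the other keratins, 1 was called higher, against 2 with the likelihood ratio test, with at least 1 count, with GC and length trends removed (with or without the block) and with the crossed block, 0 with ERCC totals, and 0 to 2 with 1 library left out. The partner lists held 2 called higher, against 0 with ERCC totals, 1 with the block, 4 with GC, length and block, and 0 to 5 with 1 library left out. They held 4 called lower, against 0 with ERCC totals, 1 with the ERCC factor, 2 with at least 10 counts, 0 with the block, 7 with the crossed block, and 0 to 9 with 1 library left out.

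With ERCC totals, which moved the median of all genes to 0.63, the sign reversed for LMNA (0.32), ELF3 (0.28), EPPK1 (0.17), PKP3 (0.31), SYNM (0.053) and TRIM28 (0.28), each still below that median. PKP3 also reversed with GC and length trends removed (0.038, and 0.037 with the block). The cause of these shifts was not tested. With 2 libraries per group, the spread between libraries and not the counting error limits the precision of the members past the minimum, and for KRT20 and KRT23 the counts do.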
